A study of Mus musculus with 8 samples.

Results

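Rex2 (reduced expression 2) lies in a run of closely related zinc finger genes on mouse chromosome 4. The cluster described here was made up of the protein-coding genes that start between 145 and 147.8 Mb of chromosome 4 in the mouse build mm10 (GRCm38) and whose symbol is Rex2, begins with Gm or Zfp, or ends with Rik. This gave 21 of the 54232 genes in the count tables, namely Rex2, 17 Zfp genes and 3 predicted genes with Gm symbols. The cluster was selected on measured values, since it was taken up because Rex2 was high in 1 library labelled Ssrp1 knockout. All values of its members in the Ssrp1 experiment are therefore given as a description, with no p-value for any member, and nothing is read from the calls among them. In order along the chromosome the members were Zfp990, Gm13212, Zfp980, Zfp986, Zfp987, Zfp600, Zfp992, Zfp981, Zfp993, Gm21411, Zfp989, Rex2, Zfp991, Zfp988, Zfp978, Zfp982, Gm16503, Zfp985, Zfp979, Zfp534 and Zfp984.

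Poly(A) RNA was sequenced from mouse E14 embryonic stem cells, a line from the inner cell mass of the blastocyst, in 8 libraries. There were 4 groups of 2 libraries: E14 cells labelled Ssrp1_KO, in which Ssrp1 was targeted with Cas9 and a guide RNA, their Ssrp1_Control cells, E14 cells labelled Usp7_KD, and their Usp7_Control cells. For the knockdown, an shRNA against Usp7 in a pSuper puro plasmid was used. Per the labels' protocols 1000 ng of plasmid was transfected and 1 ug/ml puromycin was given 24 h later for 3 days. The labels give this treatment for both the Usp7_KD and the Usp7_Control group, and for neither group of the Ssrp1 experiment. All groups carry the strain label 12910la and, per the labels, were grown on gelatin in medium with 15% FBS and 10 ng/ml LIF, a cytokine that keeps embryonic stem cells undifferentiated. Ssrp1 is a subunit of FACT, a histone chaperone that takes nucleosomes apart and rebuilds them during transcription and replication. Usp7 is an enzyme that removes ubiquitin from proteins, among them the p53 regulator Mdm2. The labels do not say whether a knockout library comes from its own clone, which plasmid the Usp7_Control cells received or what the Ssrp1_Control cells received. Nor do they say whether replicates were separate cultures, so p-values measure the spread between these libraries, which may be technical.

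Genes of this kind encode KRAB zinc finger proteins. Each protein reads a DNA sequence through a row of C2H2 zinc fingers, and its KRAB box binds Trim28 (KAP1), which brings the histone methyltransferase Setdb1 to the site. The H3K9 trimethylation that follows silences retrotransposons in embryonic stem cells and in the early embryo. The genes arise by tandem duplication, so neighbours in a cluster are often near copies of each other.

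The promoters of the cluster show this kinship. A RefSeq promoter (build GRCm38.p6, 250 bases before to 50 bases after the annotated start) was matched to 11 of the 21 members: Gm13212, Zfp980, Zfp987, Zfp600, Rex2, Zfp988, Zfp982, Zfp985, Zfp979, Zfp534 and Zfp984. Identity between any 2 of them ranged from 58.0% to 98.7% over 55 pairs, with a median of 74.9%. Relative to the Rex2 promoter, identity was 98.7% for Zfp600, 94.8% for Zfp979, 88.6% for Zfp980, 83.4% for Zfp985 and 72.4% for Zfp534. These 6 are printed below because their genes span the cluster and because they range from a near copy of Rex2 to a distant relative. Each line gives the 250 bases before the start site, read toward the gene. They lie at chr4:147021600-147021849 on the plus strand for Rex2, chr4:146156577-146156826 on the plus strand for Zfp600, chr4:147642509-147642758 on the minus strand for Zfp979, chr4:145670447-145670696 on the plus strand for Zfp980, chr4:147553027-147553276 on the plus strand for Zfp985 and chr4:147702632-147702881 on the minus strand for Zfp534. Capitals mark a pair of runs of 21 bases that all 6 share.
Rex2: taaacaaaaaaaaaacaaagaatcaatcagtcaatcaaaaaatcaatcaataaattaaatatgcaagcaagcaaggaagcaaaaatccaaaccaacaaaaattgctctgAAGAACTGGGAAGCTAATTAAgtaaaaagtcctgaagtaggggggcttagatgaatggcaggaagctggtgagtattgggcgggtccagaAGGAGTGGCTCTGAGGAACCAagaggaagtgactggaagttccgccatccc
Zfp600: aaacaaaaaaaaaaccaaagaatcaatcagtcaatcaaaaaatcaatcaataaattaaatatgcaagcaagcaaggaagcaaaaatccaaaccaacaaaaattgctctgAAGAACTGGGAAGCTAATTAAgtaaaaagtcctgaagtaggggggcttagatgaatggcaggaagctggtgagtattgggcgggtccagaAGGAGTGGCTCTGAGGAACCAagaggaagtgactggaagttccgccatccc
Zfp979: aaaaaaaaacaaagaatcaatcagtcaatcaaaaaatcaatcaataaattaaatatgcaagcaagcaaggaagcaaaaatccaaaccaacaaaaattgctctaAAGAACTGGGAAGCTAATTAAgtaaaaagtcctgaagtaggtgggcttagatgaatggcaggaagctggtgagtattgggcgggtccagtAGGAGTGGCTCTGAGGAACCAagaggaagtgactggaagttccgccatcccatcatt
Zfp980: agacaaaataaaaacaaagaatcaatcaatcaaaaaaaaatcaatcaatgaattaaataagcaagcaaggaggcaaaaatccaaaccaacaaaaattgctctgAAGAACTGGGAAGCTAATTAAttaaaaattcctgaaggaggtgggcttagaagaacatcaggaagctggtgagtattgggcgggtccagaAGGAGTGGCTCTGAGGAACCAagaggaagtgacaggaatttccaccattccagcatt
Zfp985: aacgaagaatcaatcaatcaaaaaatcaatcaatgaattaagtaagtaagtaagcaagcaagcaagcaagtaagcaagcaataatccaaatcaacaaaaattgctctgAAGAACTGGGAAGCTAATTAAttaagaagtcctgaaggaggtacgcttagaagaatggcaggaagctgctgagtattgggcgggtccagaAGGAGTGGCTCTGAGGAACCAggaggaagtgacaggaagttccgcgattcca
Zfp534: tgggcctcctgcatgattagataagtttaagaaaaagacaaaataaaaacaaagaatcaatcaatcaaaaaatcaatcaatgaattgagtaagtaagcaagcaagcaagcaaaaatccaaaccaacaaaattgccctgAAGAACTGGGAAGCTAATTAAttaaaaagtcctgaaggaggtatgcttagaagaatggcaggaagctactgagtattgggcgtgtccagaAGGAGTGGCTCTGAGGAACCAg

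Both runs of 21 bases, AAGAACTGGGAAGCTAATTAA and AGGAGTGGCTCTGAGGAACCA, stood in 9 of the 11 member promoters, the exceptions being Gm13212 and Zfp984. On either strand, each was found in 9 of 32851 RefSeq promoters, a share of 0.0274%, so no promoter outside the cluster held it. The last 15 bases of the first run, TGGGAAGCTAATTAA, were held by all 11 member promoters, between 106 and 154 bases before the start site. They were held by 12 promoters of the whole RefSeq set, a share of 0.0365%, and the only one besides the 11 was listed for Zfp981, which is also a member. Of 5 common promoter motifs searched on both strands, the CCAAT box (CCAAT) stood in 11 of 11 member promoters, against 37.4% of all RefSeq promoters. The GC box (GGGCGG) stood in 9 of 11, against 35.7%. In the printed promoters of Rex2, Zfp600, Zfp979, Zfp980 and Zfp985 the GC box overlaps a CCAAT box read on the other strand. As the member promoters are akin in sequence, these counts are not independent of each other. The TATA box (TATAAA), the E-box (CACGTG) and the CRE (TGACGTCA) stood in none, against 13.6%, 7.20% and 1.80% of all promoters. These matches describe the letters of these windows and were not tested as binding sites.

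The coding sequences are alike to varying degrees. A KRAB box pattern (phenylalanine, any 2 residues, 2 glutamates and tryptophan) was found in the translated coding sequence of 20 of the 21 members, the exception being Gm16503. Matches to a C2H2 finger pattern numbered 20 in Gm13212, 17 in Zfp600, 15 in Rex2, 13 in Zfp990 and 3 in Zfp979. Gm21411, with a product of 136 residues, had the KRAB pattern and 0 fingers. Over the 190 pairs among the 20 members other than Gm16503, protein identity ranged from 11.8% to 99.0%, with a median of 55.1%. The pair at 99.0% was Zfp991 and Zfp992, whose levels differed widely across the libraries, as described below.

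Near copies bear on the counts, because the treatment of reads that fit several genes is not given in the sources used here. Each member's transcripts were therefore cut into all stretches of 100 bases, and the share found in the transcripts of no other gene was counted. For Rex2 this share was 24.7%, and 66.7% of its stretches also occurred in Zfp600. It was below 50% for 7 members, with 32.3% for Zfp600, 29.2% for Zfp987, 29.7% for Zfp991, 28.1% for Zfp993, 30.0% for Zfp986 and 39.5% for Zfp978. The levels of these 7 genes may in part belong to a copy. It was highest among the expressed members for Zfp985 at 98.3%, Zfp982 at 96.9%, Zfp990 at 96.4% and Zfp981 at 87.8%, and these genes give the cleanest view of the cluster. The build mm10 represents C57BL/6J mice and E14 is a 129-derived line, and a difference in gene copies between the strains was not tested.

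Total counts per library ranged from 15879056 to 18361130. Levels are given as CPM, counts per 1000000 reads of the library after scaling by TMM factors over the 8 libraries. All 8 embryonic stem cell markers checked, Pou5f1 and Nanog among them, were at 1 CPM or more in every library. Usp7 stood at 111 and 122 CPM in Usp7_KD libraries, against 371 and 359 CPM in Usp7_Control libraries. Ssrp1 stood at 412 and 123 CPM in the libraries labelled Ssrp1_KO 1 and 2, against 462 and 479 CPM in Ssrp1_Control libraries, so its transcript was near the control level in library 1. Ssrp1_KO is used below as a label. The experiments were deposited as separate tables with no shared control, so a level set across them cannot be told apart from a difference between the experiments in cells, handling or sequencing.

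The cluster was high in Ssrp1_KO library 1 and in all 4 libraries of the Usp7 experiment, and low in Ssrp1_KO library 2 and both Ssrp1_Control libraries. The CPM summed over the 21 members was 1420 and 147 in Ssrp1_KO libraries 1 and 2, and 85.4 and 106 in Ssrp1_Control libraries. It was 647 and 675 in Usp7_KD libraries, and 605 and 685 in Usp7_Control libraries. In raw counts the sum was 20904 and 2608 in Ssrp1_KO libraries, 1191 and 1798 in Ssrp1_Control libraries, 12252 and 12894 in Usp7_KD libraries and 10686 and 12348 in Usp7_Control libraries. In bulk libraries, fewer cells with an active cluster and less RNA per cell cannot be told apart. Control cells of the 2 experiments stood further apart in this cluster than knockdown and control cells did.

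**Figure D1:**
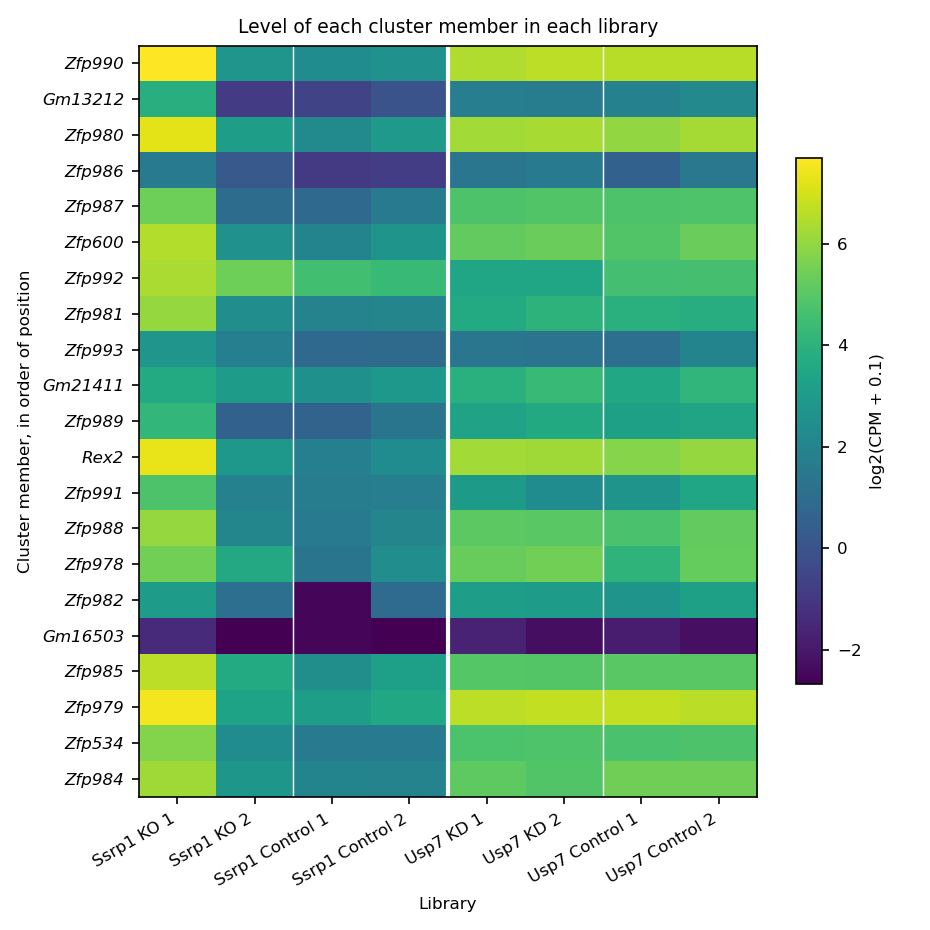
Level of each of the 21 members as log2(CPM + 0.1), with members in order of position down the page and the 8 libraries across it, Ssrp1_KO left of Ssrp1_Control and Usp7_KD left of Usp7_Control. Nearly every row is bright in Ssrp1_KO library 1 and in the 4 Usp7 libraries and dark in the other 3, while Zfp992, Zfp993 and Gm21411 vary less and Gm16503 is near 0 throughout.

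Rex2, for which the cluster was chosen, followed this pattern. Its raw counts were 2404 and 125 in Ssrp1_KO libraries 1 and 2, and 47 and 86 in Ssrp1_Control libraries. They were 1441 and 1424 in Usp7_KD libraries, and 987 and 1188 in Usp7_Control libraries. On the CPM scale Rex2 stood at 163 and 7.06 in Ssrp1_KO libraries, against 3.37 and 5.07 in Ssrp1_Control libraries. Knockout library 1 was thus 23.1-fold above library 2, while library 2 lay close to the controls at 1.67 times their mean. In the Usp7 experiment Rex2 stood at 76.1 and 74.5 CPM in knockdown libraries and 55.9 and 65.9 CPM in control libraries. The mean of the Usp7_Control libraries was 14.4-fold above that of the Ssrp1_Control libraries.

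Members with mostly unique sequence followed the same course to varying degrees. Zfp990, the first member of the window and 96.4% unique, stood at 207 and 6.50 CPM in Ssrp1_KO libraries 1 and 2, against 5.02 and 5.78 CPM in Ssrp1_Control libraries. It stood at 87.4 and 99.9 CPM in Usp7_KD libraries and at 95.7 and 95.2 CPM in Usp7_Control libraries. With a factor of 31.9 it had the widest gap between the knockout libraries of all members that passed the filter. Zfp985, 98.3% unique, stood at 102 and 12.5 CPM in Ssrp1_KO libraries, against 5.31 and 9.03 CPM in Ssrp1_Control libraries. It stood at 31.3 and 29.8 CPM in Usp7_KD libraries and 32.5 and 32.8 CPM in Usp7_Control libraries. Zfp982, 96.9% unique, was far lower, with 8.07 and 2.09 CPM in Ssrp1_KO libraries, 0.0717 and 1.83 CPM in Ssrp1_Control libraries, 8.82 and 8.11 CPM in Usp7_KD libraries and 6.29 and 9.31 CPM in Usp7_Control libraries. Its lowest value is a single read. Zfp981, 87.8% unique, stood at 66.0 and 5.25 CPM in Ssrp1_KO libraries and 3.80 and 4.07 CPM in Ssrp1_Control libraries. It reached only 12.6 and 16.1 CPM in Usp7_KD libraries and 14.7 and 13.6 CPM in Usp7_Control libraries, and it was the 1 member of 20 more than 4-fold higher in Ssrp1_KO library 1 than in the Usp7_Control mean.

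Other genes whose promoters are printed above also stood high in Ssrp1_KO library 1. Zfp979 stood at 183 and 9.94 CPM in Ssrp1_KO libraries 1 and 2, against 8.61 and 11.7 CPM in Ssrp1_Control libraries, and at 102 and 106 CPM in Usp7_KD libraries, against 108 and 98.8 CPM in Usp7_Control libraries. Zfp980 stood at 152 and 8.53 CPM in Ssrp1_KO libraries, against 4.81 and 7.55 CPM in Ssrp1_Control libraries, and at 77.2 and 80.0 CPM in Usp7_KD libraries, against 64.2 and 79.3 CPM in Usp7_Control libraries. In both genes Ssrp1_KO library 2 lay among or next to the controls. Zfp600, the near copy of Rex2, stood at 91.1 and 5.88 CPM in Ssrp1_KO libraries, against 3.87 and 6.37 CPM in Ssrp1_Control libraries. Its Usp7 values were 36.8 and 40.4 CPM in knockdown libraries and 29.1 and 40.0 CPM in control libraries. Zfp534 stood at 53.9 and 5.08 CPM in Ssrp1_KO libraries, 2.94 and 2.83 CPM in Ssrp1_Control libraries, 26.9 and 28.4 CPM in Usp7_KD libraries and 26.0 and 28.0 CPM in Usp7_Control libraries.

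For Zfp984 and Zfp978, as for Rex2 and several other members described above, Ssrp1_KO library 2 also lay above both controls. Zfp984, the last member, stood at 74.2 and 7.01 CPM in Ssrp1_KO libraries 1 and 2 and at 3.87 and 3.83 CPM in Ssrp1_Control libraries. Zfp978 stood at 44.7 and 11.8 CPM in Ssrp1_KO libraries and at 2.44 and 5.19 CPM in Ssrp1_Control libraries, so library 2 was 3.08 times the control mean. Zfp988, Zfp987, Zfp989, Zfp991 and Gm13212 stood at 14.0 to 65.4 CPM in Ssrp1_KO library 1 and at 0.452 to 4.12 CPM in library 2. In Ssrp1_Control libraries these 5 genes ranged from 0.574 to 4.01 CPM.

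Zfp992, Zfp993 and Gm21411 departed from the rest. Zfp992 stood at 82.0 and 41.7 CPM in Ssrp1_KO libraries, against 23.7 and 19.7 CPM in Ssrp1_Control libraries, so both knockout libraries lay above both controls. In the Usp7 experiment it stood at 10.7 and 10.8 CPM in knockdown libraries, against 24.4 and 24.9 CPM in control libraries. The mean of its Usp7_Control libraries was 1.14 times that of its Ssrp1_Control libraries, a ratio that was 0.554 once the trend on GC content and length described below was removed. Zfp991, its near copy in protein sequence, stood at 28.0 and 3.62 CPM in Ssrp1_KO libraries, 3.16 and 3.30 CPM in Ssrp1_Control libraries, 7.81 and 5.08 CPM in Usp7_KD libraries and 6.29 and 10.7 CPM in Usp7_Control libraries. The transcripts of Zfp992 were 71.4% unique, and 24.8% of their stretches also occurred in Zfp991. Gm21411, the member without fingers, stood at 12.6 and 8.08 CPM in Ssrp1_KO libraries and 5.67 and 7.08 CPM in Ssrp1_Control libraries. It stood at 14.9 and 19.5 CPM in Usp7_KD libraries and 11.4 and 17.8 CPM in Usp7_Control libraries. Zfp993 and Zfp986 stayed under 7 CPM in every library, and Gm16503 had 1 to 4 reads per library and did not pass the filter on low counts.

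**Figure D2:**
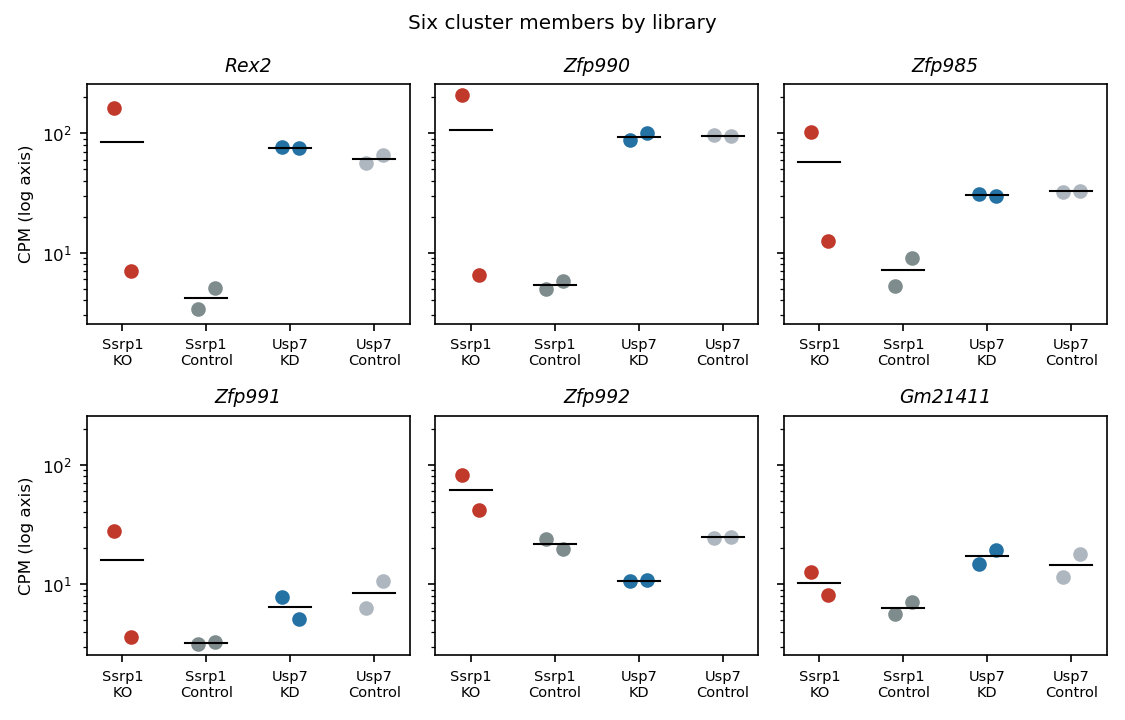
CPM on a log axis for 6 members, 1 point per library and a bar at the mean of the 2 libraries of each group. Rex2, Zfp990, Zfp985 and Zfp991 split the 2 Ssrp1_KO libraries widely, while Zfp992 is high in both and lowest in the Usp7_KD libraries and Gm21411 varies little.

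Per length of exonic sequence the order of the members changed. The mean level over the 8 libraries was 21.5 CPM per kb for Zfp990, 19.7 for Zfp978, 19.1 for Zfp979, 16.2 for Gm21411, 14.8 for Zfp980 and 13.0 CPM per kb for Rex2. At the other end stood Zfp986 at 1.26 CPM per kb, Gm13212 at 1.05 CPM per kb and Gm16503 at 0.0402 CPM per kb.

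Over the cluster, 14 of the 20 members that passed the filter were more than 4-fold higher in Ssrp1_KO library 1 than in library 2, against 3.02% of 17052 genes. The median ratio was 3.53 on the log2 scale for members and -0.01 for all genes. The 6 others were Zfp982 at 3.86-fold, Zfp978 at 3.81-fold, Zfp986 at 2.78-fold, Zfp992 at 1.97-fold, Zfp993 at 1.92-fold and Gm21411 at 1.56-fold. Relative to the Ssrp1_Control mean, library 1 was more than 4-fold higher for 17 of 20 members, against 5.81% of all genes, and library 2 for 0 of 20, against 5.42%. The Usp7_Control mean was more than 4-fold above the Ssrp1_Control mean for 15 of 20 members, against 3.11% of all genes, with a median log2 ratio of 2.80 for members and 0.05 for all genes. Ssrp1_KO library 1 exceeded the Usp7_Control mean by more than 4-fold for 1 of 20 members, against 4.47%, with a median log2 ratio of 1.07. The factor of 4 was chosen after the values were seen, and members with counts shared between copies are not independent of each other.

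The ratio of Ssrp1_KO library 1 to library 2 is also given by the share of unique sequence. It ranged from 3.86 to 31.9 over the 3 expressed members with at least 90% unique sequence, and from 1.92 to 23.1 over the 7 members with less than 50%. The part of shared sequence in the result was not tested.

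A factor above 4 in both ratios, knockout library 1 over 2 and Usp7_Control over Ssrp1_Control, was met by 12 of 20 members, against 0.868% of all genes. Of the 146 genes with an annotated position that met it, 12 were members, 5 were other genes of the same window and 20 were Zfp genes elsewhere. When the genome was divided into stretches of 3 Mb, the most found in any stretch outside the window was 7, on chromosome 7, with Zfp719, Zfp936 and Zfp977 among them. The 5 other genes of the window were pseudogenes, such as Gm13230, which stood at 17.0 and 0.734 CPM in Ssrp1_KO libraries, 0.502 and 1.00 CPM in Ssrp1_Control libraries, 8.08 and 6.70 CPM in Usp7_KD libraries and 4.93 and 9.48 CPM in Usp7_Control libraries.

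Few genes beyond the edges of the window showed the pattern. Of 50 protein-coding genes within 2 Mb outside the window that passed the filter, 1 was more than 4-fold higher in Ssrp1_KO library 1 than in library 2, and 0 were more than 4-fold higher in the Usp7_Control than in the Ssrp1_Control mean. Just outside lay Vps13d, a lipid transfer protein gene, with 42.2 and 37.2 CPM in Ssrp1_KO libraries and 25.4 and 41.8 CPM in Ssrp1_Control libraries. At the other end lay Zfp933, a zinc finger gene left out by position alone, with 4.34 and 1.02 CPM in Ssrp1_KO libraries and 1.36 and 0.885 CPM in Ssrp1_Control libraries. It was the flanking gene past 4-fold between the knockout libraries. The window also held 2 protein-coding genes left out by their symbols, the tumour necrosis factor receptors Tnfrsf1b and Tnfrsf8. Tnfrsf1b stood at 12.8 and 22.4 CPM in Ssrp1_KO libraries and 17.0 and 23.5 CPM in Ssrp1_Control libraries. Tnfrsf8 stood at 12.3 and 3.90 CPM in Ssrp1_KO libraries and 1.79 and 1.71 CPM in Ssrp1_Control libraries. It came near the 4-fold cut in both ratios. Ssrp1_KO library 1 was 3.15-fold above library 2, and the Usp7_Control mean was 3.47-fold above the Ssrp1_Control mean. For Zfp933 the ratio of the control means was 3.52, and for Tnfrsf1b it was 1.04.

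**Figure D3:**
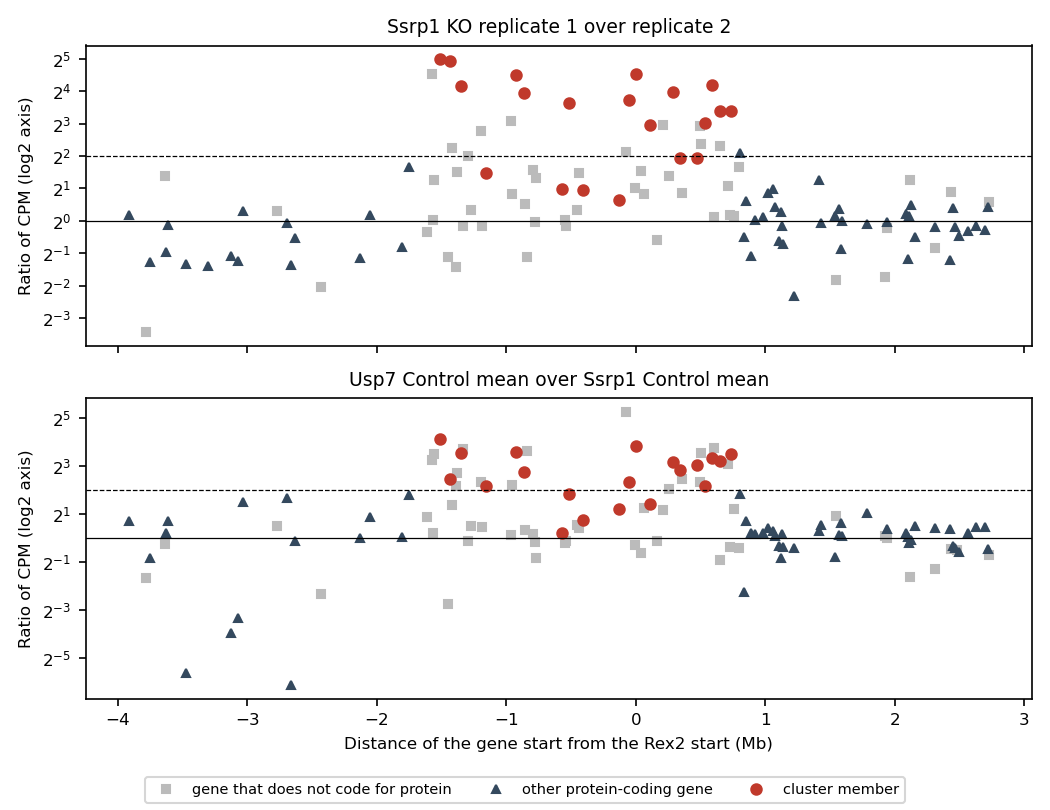
Ratio of CPM on a log2 axis against the distance of each gene's start from the Rex2 start in Mb, for Ssrp1_KO library 1 over library 2 (top) and the Usp7_Control mean over the Ssrp1_Control mean (bottom), with a dashed line at 4-fold. Of the 20 members, 14 lie above the dashed line in the top panel and 15 in the bottom panel, while 1 and 0 of the 50 protein-coding genes within 2 Mb outside the window do.

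A similar cluster on chromosome 2, of 44 protein-coding genes with Gm, Zfp or Rik symbols that start in the 3.5 Mb from 174.5 Mb, was compared. There 2 of 41 genes that passed the filter were more than 4-fold higher in Ssrp1_KO library 1 than in library 2, compared with 14 of 20 on chromosome 4. Library 2 exceeded the Ssrp1_Control mean by more than 4-fold for 30 of 41 genes of the chromosome 2 cluster and for 0 of 20 members on chromosome 4. Both clusters stood apart between the control groups, with the Usp7_Control mean more than 4-fold higher for 37 of 41 and 15 of 20 genes. Of 357 other protein-coding Zfp genes that passed the filter, 37 were more than 4-fold higher in Ssrp1_KO library 1 than in library 2 and 56 in the Usp7_Control than in the Ssrp1_Control mean. These counts were not tested against each other.

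Base composition moved with these results. The members that passed the filter had a median GC content of 36.0%, against 49.9% for all genes, and 19 of 20 were among the 10% of genes with the lowest GC content, at or under 41.3%. Over those low-GC genes, the median deviation from the mean of the 8 libraries was 0.57 and 0.09 on the log2 scale in Ssrp1_KO libraries 1 and 2, and -0.79 and -0.37 in Ssrp1_Control libraries. It was 0.22 and 0.20 in Usp7_KD libraries and -0.02 and 0.19 in Usp7_Control libraries. When a smooth trend on GC content and exonic length was removed from each library, an alternative added after the data were seen, the summed CPM of the members was 711 and 148 in Ssrp1_KO libraries, 177 and 172 in Ssrp1_Control libraries, 518 and 565 in Usp7_KD libraries and 582 and 592 in Usp7_Control libraries. The gap between the knockout libraries was smaller but remained, with 12 of 20 members more than 4-fold apart, against 2.53% of all genes, and a median log2 ratio of 2.48. Between the control groups 9 of 20 members were more than 4-fold apart, against 2.52%, with a median log2 ratio of 1.85. Among the members with mostly unique sequence, Usp7_Control over Ssrp1_Control was then 7.9 for Zfp990, 6.67 for Zfp982, 2.27 for Zfp985 and 1.62 for Zfp981. Rex2 then stood at 85.8 and 7.71 CPM in Ssrp1_KO libraries, 7.58 and 8.60 CPM in Ssrp1_Control libraries, 58.6 and 58.5 CPM in Usp7_KD libraries and 53.1 and 53.6 CPM in Usp7_Control libraries. Zfp992 stood at 46.3 and 43.7 CPM in Ssrp1_KO libraries and 49.1 and 31.1 CPM in Ssrp1_Control libraries, so its groups in the Ssrp1 experiment then overlapped. In the Usp7 experiment it stood at 8.50 and 8.69 CPM in knockdown libraries and 23.7 and 20.7 CPM in control libraries, which did not overlap.

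**Figure D4:**
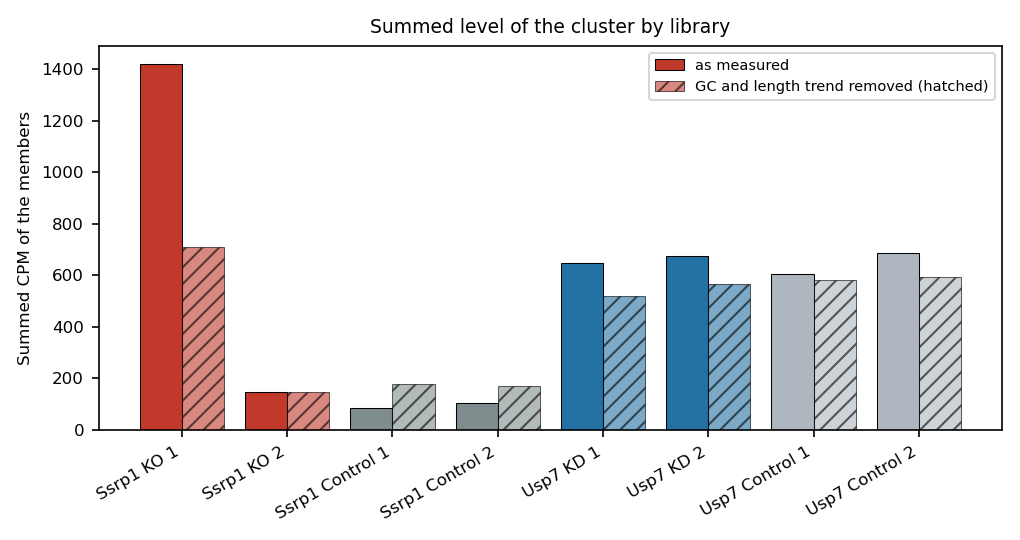
CPM summed over the cluster in each library, as measured (plain bars, 21 members) and with the trend on GC content and length removed (hatched bars, the 20 members that passed the filter). Ssrp1_KO library 1 stands at 711 with the trend removed, against 1420 as measured, and stays above the 148 of library 2 and the 177 and 172 of the Ssrp1_Control libraries.

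Other features of the libraries were set beside the cluster. Mitochondrially encoded genes took 7.31% and 2.81% of the counts in Ssrp1_KO libraries 1 and 2, 0.732% and 0.776% in Ssrp1_Control libraries, 2.44% and 2.03% in Usp7_KD libraries and 2.23% and 1.67% in Usp7_Control libraries. Their part in the result was not tested. Genes of the 2-cell-like state, in which stem cells briefly express genes of the early embryo, did not follow the cluster. Over the 11 of 12 listed genes found in the files, the summed CPM was 583 and 1510 in Ssrp1_KO libraries 1 and 2, 73.1 and 173 in Ssrp1_Control libraries, 35.0 and 28.0 in Usp7_KD libraries and 4.59 and 4.66 in Usp7_Control libraries. The library with the highest 2-cell-like sum thus had a low cluster, and the Usp7 libraries had a high cluster with a low sum. Over 6 fibroblast markers the sum was 14.9 and 38.2 CPM in Ssrp1_KO libraries, 19.8 and 19.9 in Ssrp1_Control libraries, 8.71 and 12.6 in Usp7_KD libraries and 14.2 and 16.2 in Usp7_Control libraries. Over 6 primitive endoderm markers it was 29.7 and 22.9 CPM in Ssrp1_KO libraries, 3.87 and 6.84 in Ssrp1_Control libraries, 13.4 and 18.1 in Usp7_KD libraries and 8.55 and 10.1 in Usp7_Control libraries. Over 6 trophoblast markers it lay between 36.3 and 70.9 CPM in all 8 libraries. No listed marker that was found was at 0 in every library, and their part in the result was not tested.

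In the fit of the Ssrp1 experiment, all 20 members that passed the filter had a positive log2 change for Ssrp1_KO over Ssrp1_Control, between 0.74 and 4.37, with a median of 3.24 against 0.03 for all genes. By edgeR's quasi-likelihood test with Benjamini-Hochberg adjustment, Rex2, Zfp992, Zfp984 and Zfp978 were among the 3.39% of genes called higher and no member was among the 0.324% called lower. With the correction for GC content and length, 0 members were called. The log2 change of Rex2 was 4.37 with a standard error of 1.04, and its 2 knockout libraries stood far apart. On the same libraries the standard error was 0.4 without the filter on low counts and 1.7 with DESeq2, so it depended on the method. The edgeR values were computed from the log2 change and the F statistic, while DESeq2 gives its own standard error. Zfp992 had a log2 change of 1.56 with a standard error of 0.36. Both knockout libraries were above both controls for 15 of 20 members, a state met by 25.2% of all genes, and below for 0 of 20, against 24.7%. As this experiment chose the cluster, these calls and counts are no test of its members and nothing is read from them. The changes also turned on 1 library: without Ssrp1_KO library 1 the median log2 change of the members was 0.43. It was 4.14 without Ssrp1_KO library 2 and 2.91 without Ssrp1_Control library 1.

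The Usp7 experiment had no part in choosing the cluster. There most members stood at a high level in both groups, and Zfp992 fell in the knockdown. Of 20 members tested, 0 were called higher, against 2.36% of 15915 genes, and 1 was called lower, against 0.628%. The median log2 change of the members was 0.03, against -0.02 for all genes, and 2 of 20 members had an unadjusted p under 0.05, against 16.7% of all genes. Zfp992 fell by 1.20 on the log2 scale with a standard error of 0.22 and an adjusted p of 0.015 by edgeR's quasi-likelihood test with Benjamini-Hochberg adjustment over all genes. Its mean was 10.8 ± 0.0477 CPM in Usp7_KD libraries and 24.7 ± 0.335 CPM in Usp7_Control libraries (SD, n = 2 libraries each), and both knockdown libraries were lower. The call was lost without either knockdown library (edgeR adjusted p = 0.11 without library 1 and 0.41 without library 2), without the filter on low counts (0.076) and in a joint fit of all 8 libraries (0.16).

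Rex2 had a log2 change of 0.31 in the Usp7 knockdown with a standard error of 0.19 and an edgeR adjusted p of 0.45, with means of 75.3 ± 1.08 CPM in Usp7_KD libraries and 60.9 ± 7.03 CPM in Usp7_Control libraries (SD, n = 2 libraries each). Both of its knockdown libraries were above both controls, as they were for 24.5% of all genes, and the only other such member was Zfp978. Zfp978 had a log2 change of 0.61 with a standard error of 0.32 and an edgeR adjusted p of 0.38, with 39.2 and 44.7 CPM in Usp7_KD libraries and 16.6 and 38.1 CPM in Usp7_Control libraries. Without Usp7_Control library 2 its log2 change was 1.34 and it was called. Both knockdown libraries were below both controls for Zfp992, Zfp984, Zfp985 and Gm13212, a state met by 22.8% of all genes. For the first 3 of these both Ssrp1_KO libraries were also above both Ssrp1_Control libraries, a combination met by 4.45% of all genes, and as it uses the Ssrp1 values nothing is read from it. Zfp984 had a log2 change of -0.44 with a standard error of 0.19 and an edgeR adjusted p of 0.29, with 34.8 and 29.3 CPM in Usp7_KD libraries and 43.7 and 43.0 CPM in Usp7_Control libraries. Zfp979 and Zfp990, the members with the highest mean CPM over the 8 libraries, had log2 changes of 0.00 for Zfp979 and -0.03 for Zfp990, each with a standard error of 0.18. A change under the test's threshold does not show that a gene was equal in both groups.

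**Figure D5:**
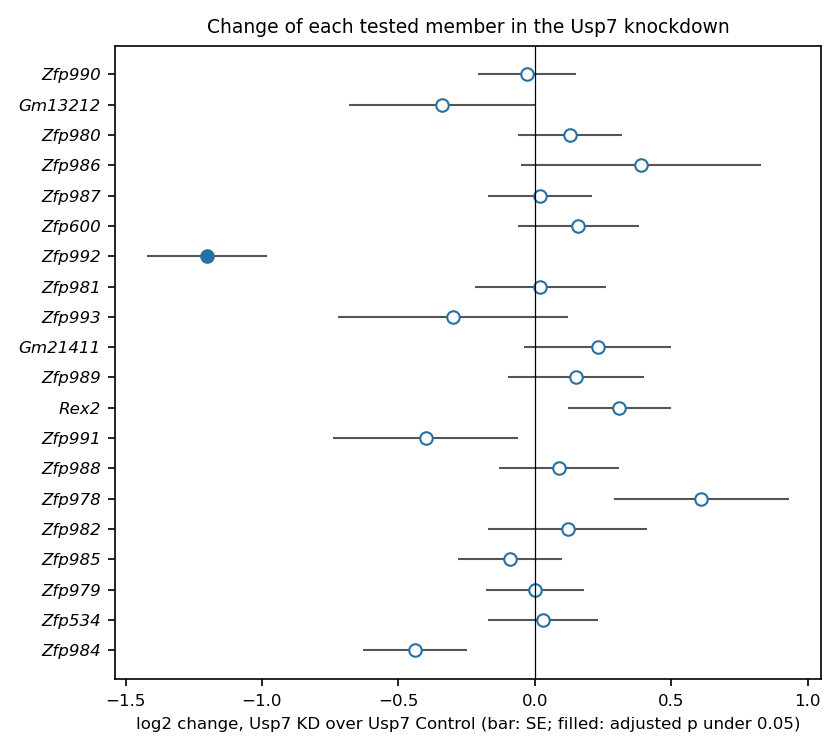
Log2 change of the 20 members that passed the filter, Usp7_KD over Usp7_Control, with the standard error as a bar, in order of position down the page. The filled point, Zfp992 at -1.20, is the only one with an adjusted p under 0.05, and the others lie between -0.44 and 0.61.

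The genes through which KRAB zinc finger proteins silence their targets were followed in a list of 36. The list also held Zfp57, Zfp809, Zfp932 and Gm15446, which are KRAB zinc finger genes outside the cluster. By edgeR 0 of the 36 were called in the Usp7 knockdown at an adjusted p under 0.05, where 2.36% of all genes were called higher and 0.628% lower. At an unadjusted p under 0.05 there were 3 of the 36, against 16.7% of all genes, and the median log2 change of the list was -0.08, against -0.02 for all genes. Under DESeq2 1 of the 36 was called lower, against 206 of 28266 genes. The number called was higher without Usp7_Control library 2, where far more of all genes were called too. Trim28, the corepressor that binds the KRAB box, had log2 changes of -0.25 in the Usp7 knockdown (SE 0.27, edgeR adjusted p = 0.69) and -0.08 in the Ssrp1 knockout (SE 0.34, edgeR adjusted p = 0.93). Setdb1, the methyltransferase, had log2 changes of -0.07 in the Usp7 knockdown (SE 0.18, edgeR adjusted p = 0.88) and 0.06 in the Ssrp1 knockout (SE 0.26, edgeR adjusted p = 0.94). Between the knockout libraries, which stood so far apart in the cluster, Setdb1 had 147 and 143 CPM and Trim28 had 2140 and 1550 CPM. In Ssrp1_Control libraries Setdb1 had 142 and 146 CPM and Trim28 had 2290 and 1770 CPM. Not every gene of the list was as level. Smarcad1 stood at 262 and 87.2 CPM in Ssrp1_KO libraries 1 and 2, and at 56.4 and 70.8 CPM in Ssrp1_Control libraries. It stood at 163 and 152 CPM in Usp7_KD libraries and 143 and 137 CPM in Usp7_Control libraries. Over the list the median log2 ratio of Ssrp1_KO library 1 to library 2 was 0.33, against -0.01 for all genes. The part of these genes in the result was not tested. Of the 36, 2 were more than 4-fold higher in Ssrp1_KO library 1 than in library 2, against 3.02% of all genes. They were Zfp932 at 27.1 and 5.48 CPM and Gm15446 at 10.9 and 2.26 CPM in Ssrp1_KO libraries 1 and 2. In Ssrp1_Control libraries Zfp932 stood at 5.38 and 6.72 CPM and Gm15446 at 1.22 and 1.59 CPM.

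In the Ssrp1 experiment 2 of the 36 were called higher, against 3.39% of all genes, and 0 were called lower, against 0.324%. The median log2 change was 0.11 for the list and 0.03 for all genes, and the number called changed with 1 library left out. The 2 called higher were Zfp809 and Atrx. Zfp809 is a KRAB zinc finger protein that silences murine leukemia virus in mouse embryonic stem cells. Atrx is a chromatin remodeller that deposits histone H3.3 with Daxx. Zfp809 stood at 38.7 and 32.7 CPM in Ssrp1_KO libraries, against 11.9 and 12.3 CPM in Ssrp1_Control libraries, a log2 change of 1.61 (SE 0.33, edgeR adjusted p = 0.028). Zfp809 was thus high in both knockout libraries. Library 2 was 2.7 times the Ssrp1_Control mean, where the cluster members ranged from 0.62 times for Gm13212 to 3.08 times for Zfp978. Atrx stood at 225 and 96.7 CPM in Ssrp1_KO libraries, against 40.7 and 59.8 CPM in Ssrp1_Control libraries, a log2 change of 1.72 (SE 0.40, edgeR adjusted p = 0.041). With the correction for GC content and length the log2 change was 1.19 for Zfp809 (edgeR adjusted p = 0.071) and 0.82 for Atrx (edgeR adjusted p = 0.19), so neither was called. Both calls were also lost without Ssrp1_Control library 1. That for Zfp809 was also lost without Ssrp1_Control library 2 and that for Atrx without Ssrp1_KO library 1.

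Genes were ranked by their Pearson correlation with Rex2 in log2(CPM + 0.1) over the 8 libraries. As the libraries stand at separate low and high levels of Rex2, the coefficient only orders genes by likeness. The members most like it were Zfp980 at 0.999, Zfp988 at 0.997, Zfp534 at 0.995, Zfp990 at 0.993 and Zfp600 at 0.993. The genes elsewhere most like it were Gm5165, a long noncoding RNA on chromosome 17, at 0.995, Zfp119b on chromosome 17 at 0.994, Naa30 on chromosome 14 at 0.993, Zfp936 on chromosome 7 at 0.990 and Gm5141 on chromosome 13 at 0.990. All 5 had a GC content between 36.7% and 40.5%. The least like of the members was Zfp992 at 0.0334.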

How the data were processed

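The authors deposited 2 tables of raw read counts for 54232 genes, one for each experiment. Per the submitters' processing notes, cutadapt, HISAT2, featureCounts and the build mm10 were used. How strand and multi-mapping reads were handled, and the tools' versions, were not given in the sources used here. All 92 spike-in rows held 0 counts, so levels carry no external standard. A total of 67 gene identifiers had no match in the GENCODE annotation. No per-sample column was left unused.

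Groups came from the sample titles. Each experiment was fitted on its own 4 libraries with edgeR 4.0.16 (filterByExpr, TMM, quasi-likelihood F test, Benjamini-Hochberg adjustment over all genes tested, call at an adjusted p under 0.05), a step tested on simulated data. The simulated data held no deviating library and no trend on GC content, so the step was not tested for these. Standard errors given for edgeR are the size of the log2 change divided by the square root of the F statistic. Levels are CPM with TMM factors over 8 libraries. GC content and exonic length were smoothed with splines of 5 degrees of freedom. DESeq2 1.42.0 was an alternative. Sequences came from RefSeq promoters and GENCODE transcripts, and were compared with Biopython 1.88. C2H2 fingers were matched as 2 to 4 residues between the cysteines, 12 up to the first histidine and 3 to 5 between the histidines. Named genes were Rex2, the 12 most abundant members, members called in the Usp7 experiment or past a log2 change of 1 in the Ssrp1 experiment, genes at the window's edges, the 5 members and 5 other genes most like Rex2, and Trim28, Setdb1 and called genes of the KRAB list. Gm13230, Znf41-ps, Gm16211, Gm21411, Gm16503, Tnfrsf1b, Tnfrsf8, Zfp932, Gm15446, Smarcad1 and the genes of the chromosome 7 stretch were named after their values were seen. The members and lists were chosen with earlier results of these data known.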

Additional observations from a re-analysis of the deposited data

Results flagged for a closer look

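For 3 members every Usp7_KD library was below every Usp7_Control library while every Ssrp1_KO library was above every Ssrp1_Control library. This state was met by 3 of 20 members and by 4.45% of all genes, and it rests in part on the Ssrp1 values that chose the cluster. The difference between the experiments was not tested. Zfp992 had a log2 change of -1.20 in the Usp7 knockdown and 1.56 in the Ssrp1 knockout. Zfp984 had log2 changes of -0.44 in the Usp7 knockdown and 3.44 in the Ssrp1 knockout. Zfp985 had log2 changes of -0.09 in the Usp7 knockdown and 3.03 in the Ssrp1 knockout. Of the 3, Zfp992 alone was called in the Usp7 experiment, and in Ssrp1_KO library 1 Zfp984 was 10.6-fold and Zfp985 8.19-fold higher than in library 2. With the correction for GC content and length the Ssrp1 change of Zfp992 was 0.14 on the log2 scale. With the trend removed the Ssrp1 groups of all 3 overlapped. Zfp992 then stood at 46.3 and 43.7 CPM in Ssrp1_KO libraries and 49.1 and 31.1 CPM in Ssrp1_Control libraries. Zfp984 stood at 37.4 and 6.90 CPM in Ssrp1_KO libraries and 7.96 and 6.31 CPM in Ssrp1_Control libraries. Zfp985 stood at 49.8 and 12.6 CPM in Ssrp1_KO libraries and 11.2 and 15.3 CPM in Ssrp1_Control libraries.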

How the results depend on the processing

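Every member kept the sign of its Usp7 change where it or the alternative was called. The number of genes called in the Usp7 experiment was 476 as reported, 100 without the filter on low counts, 78 in a joint fit of 8 libraries, 759 with the GC and length correction, and 42 to 3770 with 1 library left out. Members called were 1 as reported, 0 without the filter, 0 in the joint fit and 0 to 2 with 1 library left out. Of the KRAB list 0 were called as reported, 1 with DESeq2, 1 with the GC and length correction and 0 to 11 with 1 library left out. The members' median Usp7 change was 0.03 as reported, -0.16 with the correction and -0.05 to 0.17 with 1 library left out.

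In the Ssrp1 experiment 585 genes were called as reported, 1497 without the filter, 1100 with DESeq2, 1314 in the joint fit, 307 with the GC and length correction and 20 to 1884 with 1 library left out. Members called were 4 as reported, 8 with DESeq2 size factors in edgeR, 17 without the filter, 2 with DESeq2, 12 in the joint fit, 0 with the correction and 0 to 19 with 1 library left out. Of the KRAB list 2 were called as reported, 5 without the filter, 4 with DESeq2, 1 with the correction and 0 to 7 with 1 library left out. The 2 genes of the list called as reported were called higher, while the 1 called with the correction was called lower. That gene was thus neither Zfp809 nor Atrx, whose calls were lost with the correction. The members' median change was 3.24 as reported, 1.23 with the correction and 0.43 to 4.14 with 1 library left out. Without Ssrp1_KO library 1 the changes of Gm13212, Zfp987, Zfp989 and Zfp979 were negative, at -0.70, -0.36, -0.54 and -0.04. With the trend removed, the members more than 4-fold higher in Usp7_Control than in Ssrp1_Control numbered 9 instead of 15. Usp7 itself, at a log2 change of -1.64, was not called without Usp7_KD library 2 (edgeR adjusted p = 0.13). The causes were not tested.

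Same-numbered replicates deviated together with a correlation of 0.144 in the Usp7 and 0.184 in the Ssrp1 experiment, and with 2 pairs each this does not show pairing. With a replicate block 1471 of 15915 genes, 2 of 20 members (Zfp992 and Zfp978) and 3 of 36 genes of the KRAB list were called in the Usp7 experiment. In the Ssrp1 experiment 988 of 15757 genes were called with it, and the members' median change was 2.30.

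The limits are 2 libraries a group, near copies in the cluster, and no control common to both experiments.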

Other observations

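Genes of the window that do not code for protein include pseudogenes of zinc finger genes. Of 39 noncoding genes there that passed the filter, 10 were more than 4-fold higher in Ssrp1_KO library 1 than in library 2, and 15 were more than 4-fold higher in the Usp7_Control than in the Ssrp1_Control mean. Znf41-ps, a zinc finger pseudogene, stood at 25.4 and 3.67 CPM in Ssrp1_KO libraries, 0.932 and 1.18 CPM in Ssrp1_Control libraries, 2.48 and 2.98 CPM in Usp7_KD libraries and 4.14 and 6.37 CPM in Usp7_Control libraries. It shares 56.9% of the stretches of 100 bases of Zfp991, and how reads from such stretches were counted is not known. Gm16211, another noncoding gene of the window, stood at 32.8 and 6.55 CPM in Ssrp1_KO libraries, 37.2 and 32.7 CPM in Ssrp1_Control libraries, 24.3 and 23.7 CPM in Usp7_KD libraries and 19.8 and 17.4 CPM in Usp7_Control libraries, and its lowest value was in Ssrp1_KO library 2.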
